A study of Drosophila melanogaster with 53 samples.

Results

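The cup and comet genes of Drosophila melanogaster are a small set of testis genes whose RNA is made after meiosis, in elongating spermatids. The 10 genes described here are schuy, hale, sunz, soti and whip, named after comets, and c-cup, d-cup, r-cup, t-cup and wa-cup. They were matched by name, through the FlyBase identifiers of the deposited table, and all 10 were among the table's 15222 genes. The matching used no values, but the set was chosen with earlier results of these data known. All 10 also passed the filter on low values, a mean of at least 10 normalized counts over all libraries, which 12475 genes passed. RNA was sequenced from whole adult males, so the RNA of spermatids reaches these libraries diluted by that of every other tissue. The males were irradiated 2 days after they emerged from the pupal case with 10, 1000, 5000, 10000 or 20000 R (roentgen, a unit of radiation exposure), or kept as unirradiated controls at background radiation. They were frozen whole 2, 10 or 20 days after exposure. The labels name no strain or genotype and do not say how many flies entered a library. Each of the 18 combinations of dose and day has 3 libraries, except controls at day 20, which have 2.

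In the fly testis, stem cells at the tip divide to form spermatogonia, which become spermatocytes, pass through meiosis and elongate into spermatids. Most RNA that spermatids use is made earlier, in spermatocytes, and is stored until it is translated. The cup and comet genes are an exception, since they are transcribed in the spermatids themselves, and their RNA gathers near the distal ends of the growing tails in cup-shaped or comet-shaped patterns. The best studied of them is soti (scotti), an inhibitor of a ubiquitin ligase built on Cul3. That ligase controls the activation of caspases by which spermatids shed their cytoplasm and separate into individual sperm.

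The values are read counts that the authors normalized to 1 size factor per library, called normalized counts below. Whole reads recovered from them summed to between 15.4 and 46.2 M in a library. The libraries of a group are called a, b and c in the order of the table's columns. Of all libraries, 9 differed from the rest of their group. In 6 of them at most 12229 genes were above 0, against at least 12375 elsewhere. These 6 were control day 20 b, 5000 R day 20 c and, among the 10 R libraries, b and c of day 2, c of day 10 and c of day 20. The yolk protein gene Yp1 reached 116245 normalized counts in 10000 R day 10 c, and 10 R day 10 a was also set apart for its Yp1 level. In 20000 R day 10 a, 14553 genes were above 0, the most of any library, and this library was set apart for its histone RNA level. These 9 libraries are kept in the values below, and results that rest on them are also given without them. Without them control day 20 and 10 R day 2 each keep only library a.

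All 10 genes were detected in unirradiated males. At day 2 hale stood at 2331, 2072 and 2366 normalized counts in the 3 control libraries, and soti at 1716, 1831 and 1796. In the same libraries c-cup stood at 506, 507 and 449, and t-cup at 106, 46.8 and 11.2. The control libraries lay close together for hale, soti and c-cup and far apart for t-cup, the lowest of the set. Levels of different genes can be compared only per length, so each was divided by its annotated exonic length. On that scale schuy led with 1815 ± 98.98 normalized counts per kilobase in day 2 controls (SD, n = 3), followed by soti (1717 ± 56.7), whip (1649 ± 37.5) and hale (1631 ± 116). The libraries of each of these 4 overlapped with those of the next in order. After a gap came r-cup with 618 ± 26.4, c-cup with 552 ± 37.7 and wa-cup with 372 ± 24.7 per kilobase, whose libraries did not overlap. The lowest were sunz with 236 ± 74.0, d-cup with 178 ± 38.8 and t-cup with 76.2 ± 66.8 per kilobase, each overlapping with the next.

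In unirradiated males the group means were lower with age, by amounts that did not pass the test. In controls hale averaged 2257 ± 161 normalized counts at day 2, 1665 ± 72.8 at day 10 (SD, n = 3 each) and 1392 ± 110 at day 20 (SD, n = 2). Means of all 10 genes were lower at day 10 than at day 2, and for 7 of them the libraries of both days did not overlap, against 20.6% of all genes tested. No member passed the threshold of an adjusted p of 0.05 between days 2 and 10 (limma across all genes with Benjamini-Hochberg adjustment, as for every adjusted p below), where 2.76% of all genes did. None had an unadjusted p below 0.05, and edgeR and DESeq2 called 0. Between days 10 and 20 limma, edgeR and DESeq2 likewise called 0 members, with 0 at an unadjusted p below 0.05, and 0.0802% of all genes passed.

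**Figure D1:**
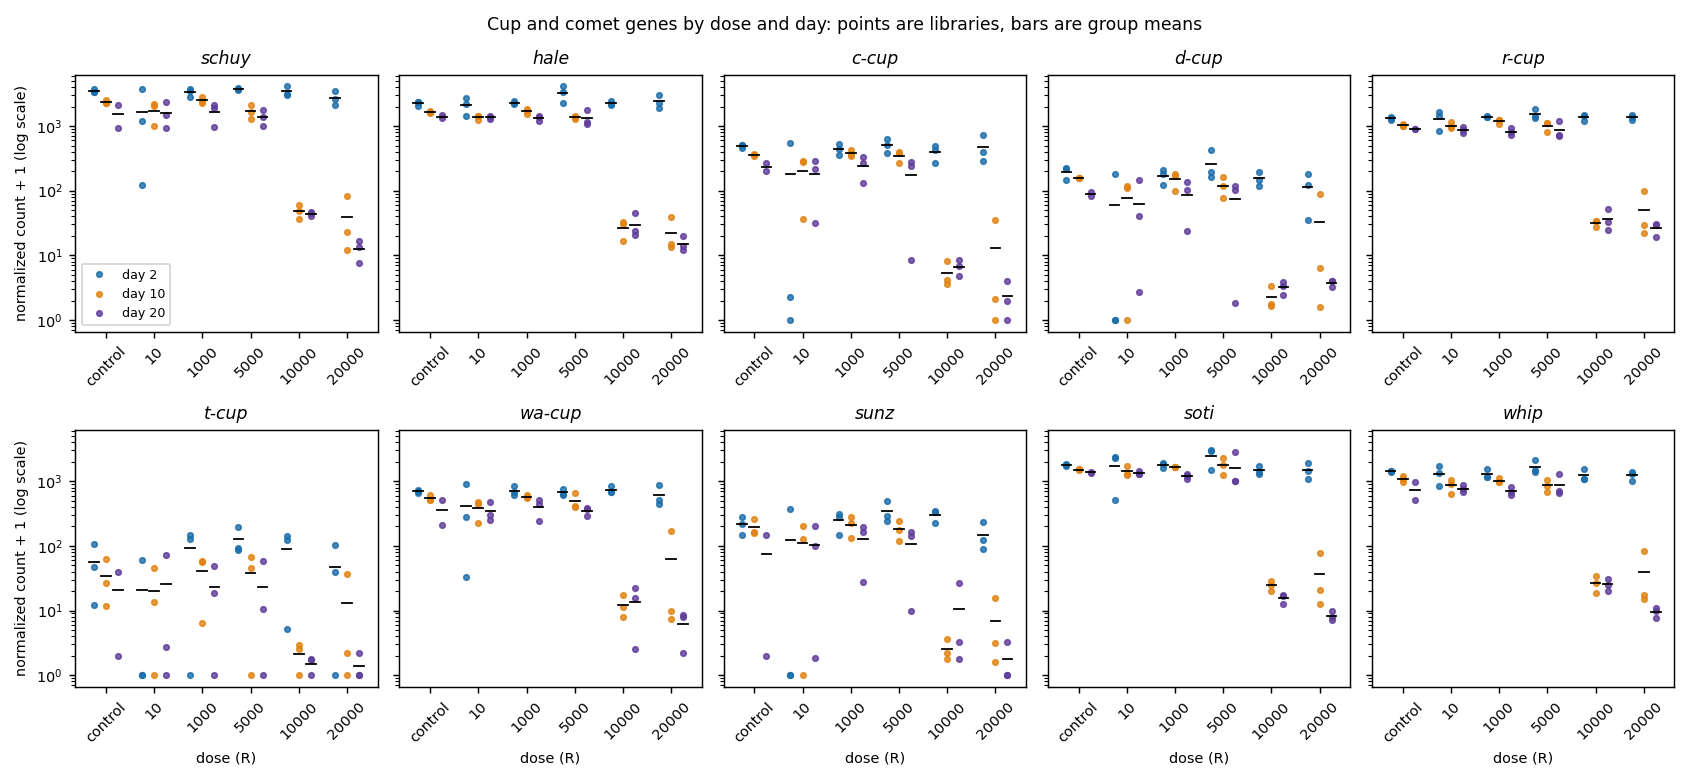
Normalized counts plus 1 (log scale) of the 10 genes in every library, by dose in R, with points coloured by day and a bar at each group mean. Libraries of 10000 R and 20000 R at days 10 and 20 lie far below all other groups for hale, r-cup, soti and whip, while single libraries of 10 R and 5000 R are low for c-cup, d-cup and sunz.

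At day 2 after exposure, doses of 1000 R and above gave no called change in any of the 10 genes. After 20000 R hale stood at 2311, 1905 and 3053 normalized counts and soti at 1944, 1087 and 1420, around the control values given above. The transcript r-cup stood at 1384, 1260 and 1487 after 20000 R against 1341, 1259 and 1368 in controls, and both sets of libraries overlapped. Median log2 changes of the 10 genes were -0.03 at 1000 R, 0.26 at 5000 R, -0.01 at 10000 R and -0.27 at 20000 R. No member was called at any of these doses by limma, edgeR or DESeq2, and none had an unadjusted p below 0.05. Of all genes tested, 0% were called at 1000 R, 0.449% at 5000 R, 0.0962% at 10000 R and 0.16% at 20000 R.

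At day 10, most of these transcripts stood at a few percent of the control level after 10000 R and 20000 R. Of the 10 genes, 9 fell at 10000 R, where 19.9% of all genes were called lower, and 8 fell at 20000 R, where 18.7% were. The libraries did not overlap with the controls for 10 genes at 10000 R (28.1% of all genes) and for 9 at 20000 R (25.2% of all genes). Median log2 changes were -5.80 and -5.36, beside 0.03 and 0.10 over all genes tested. In whole flies, fewer spermatids and less of each RNA per spermatid cannot be told apart. Both doses are set against the same 3 control libraries, so their changes are not independent of each other.

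Among the genes named after comets, hale (hale-bopp) stood at 1736, 1591 and 1670 normalized counts in day 10 controls, at 15.5, 31.2 and 29.5 after 10000 R and at 37.6, 14.1 and 12.4 after 20000 R. Every irradiated library lay far below every control. These levels were 1.52% and 1.28% of the control mean, and the log2 changes were -6.04 ± 0.29 and -6.39 ± 0.29 (SE; limma adjusted p = 3.60e-20 and 4.44e-21). The inhibitor soti stood at 1520, 1502 and 1522 in controls, at 19.05, 28.1 and 23.7 after 10000 R and at 76.1, 19.6 and 11.8 after 20000 R. It fell at both doses, with log2 changes of -5.96 ± 0.43 and -5.80 ± 0.43 (SE; limma adjusted p = 8.00e-15 and 1.73e-14). Library a of 20000 R was the highest of its group for soti, and the same was seen for the other members.

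Transcripts of schuy (schumacher-levy) stood at 2486, 2251 and 2305 normalized counts in day 10 controls, at 35.7, 58.5 and 47.4 after 10000 R and at 81.1, 21.7 and 11.2 after 20000 R. The groups did not overlap, and schuy fell with log2 changes of -5.63 ± 0.62 and -6.37 ± 0.62 (SE; limma adjusted p = 7.22e-10 and 3.03e-11). In the annotation schuy and hale are neighbours that start head to head, and an exon of schuy overlaps one of Csas on the other strand. Whether the counting used strand is not given, so reads of schuy and Csas cannot be told apart there. The gene whip (whipple) stood at 1185, 957 and 1082 in controls, at 17.9, 25.75 and 32.7 after 10000 R and at 83.05, 16.3 and 14.15 after 20000 R. Its log2 changes were -5.38 ± 0.37 and -5.26 ± 0.37 (SE; limma adjusted p = 1.50e-15 and 2.89e-15), and the groups did not overlap. A lower gene, sunz (sungrazer), stood at 259, 165 and 160 in controls, at 1.19, 0.780 and 2.56 after 10000 R and at 14.8, 2.17 and 0.590 after 20000 R. Its log2 changes were -6.31 ± 1.73 and -5.47 ± 1.73 (SE; limma adjusted p = 0.00475 and 0.0167), with an error several times that of hale. That error pools the spread within all 18 groups and does not measure the groups listed here alone. Among the 18 is 10 R day 2, where sunz stood at 371, 0 and 0. The call of sunz at 20000 R ended without control day 10 a (adjusted p = 0.0576), without 20000 R day 10 b (adjusted p = 0.0560) and without 20000 R day 10 c (adjusted p = 0.0895).

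Of the cup genes, r-cup, c-cup and wa-cup fell at both doses on day 10. The transcript r-cup stood at 1076, 991 and 1009 normalized counts in day 10 controls, at 33.3, 32.8 and 26.3 after 10000 R and at 96.9, 28.3 and 21.2 after 20000 R. It was the member with the largest share left at 10000 R among those called, 3.00% of the control mean, with log2 changes of -5.02 ± 0.31 and -4.68 ± 0.31 (SE; limma adjusted p = 4.45e-17 and 3.51e-16). The gene c-cup went from 362, 341 and 370 to 7.14, 3.12 and 2.56 after 10000 R and to 34.6, 1.09 and 0 after 20000 R, changes of -6.19 ± 1.32 and -6.41 ± 1.32 (SE; limma adjusted p = 0.000281 and 0.000178). The groups of c-cup were thus far apart. In the annotation mir-2280 and other entries overlap exons of c-cup on the same strand, and their reads could be counted with those of c-cup. For wa-cup controls stood at 618, 509 and 505, the 10000 R libraries at 16.7, 7.02 and 10.3 and the 20000 R libraries at 168, 6.52 and 8.85. Its log2 changes were -5.54 ± 0.81 and -4.55 ± 0.81 (SE; limma adjusted p = 4.86e-07 and 1.85e-05).

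The remaining cup genes, d-cup and t-cup, were not called at both doses. Controls of d-cup stood at 158, 157 and 154, the 10000 R libraries at 2.38, 0.780 and 0.641 and the 20000 R libraries at 88.0, 5.44 and 0.590. It fell by 6.20 ± 1.57 at 10000 R (SE; limma adjusted p = 0.00212). At 20000 R its change of -4.02 ± 1.57 missed the threshold (adjusted p = 0.0634) and passed it without library a of that group (-5.62, adjusted p = 0.0102). An antisense transcript overlaps an exon of d-cup on the other strand, and its reads could be counted with those of d-cup. Controls of t-cup stood at 62.6, 25.6 and 10.6 normalized counts, the 10000 R libraries at 0, 1.56 and 1.92 and the 20000 R libraries at 35.6, 0 and 1.18. The groups did not overlap at 10000 R but did at 20000 R, and t-cup was not called at either dose (limma adjusted p = 0.223 and 0.457).

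**Figure D2:**
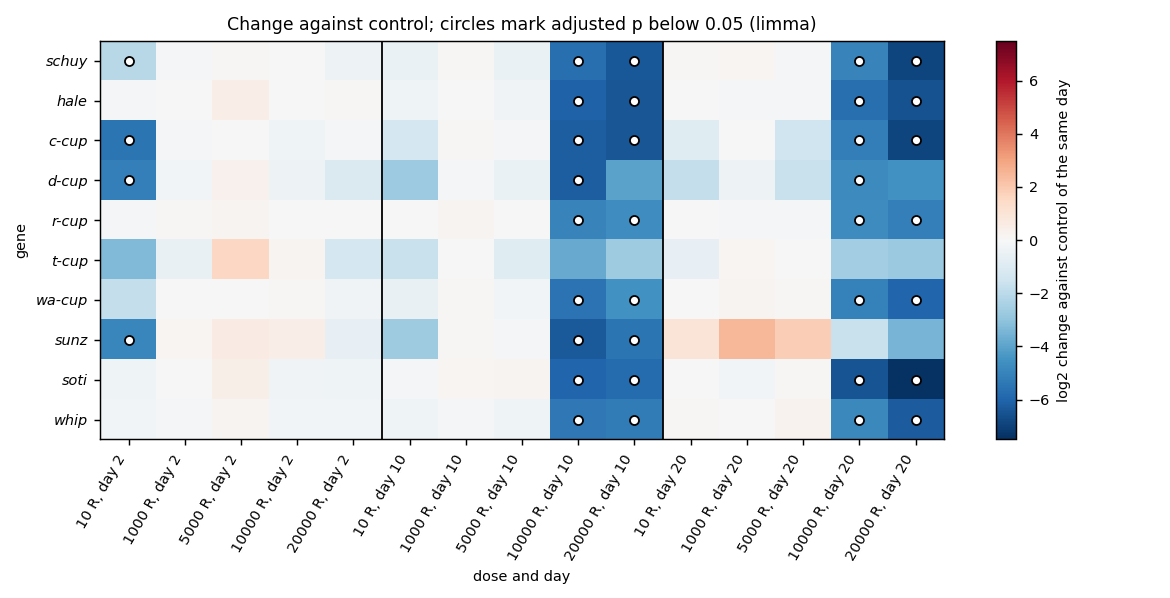
Fitted log2 change of each gene (rows) at each dose against controls of the same day (columns); blue is lower than control, and circles mark an adjusted p below 0.05. Circles fill the columns of 10000 R and 20000 R at days 10 and 20 except for t-cup and, in part, d-cup and sunz, and 4 more stand at 10 R on day 2.

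At day 20 the falls were still present. Of the 10 genes, 8 were lower than control at 10000 R (16.7% of all genes called lower) and 7 at 20000 R (16.9%), with 9 and 8 not overlapping the controls (24.6% and 26.2% of all genes). Medians were -4.92 and -6.09, beside 0.07 and 0.06 over all genes. The day 20 controls are 2 libraries, of which b is 1 of those with few genes above 0. Without the 9 libraries control day 20 a is the only control left, and the medians were -5.33 and -6.63. At this day hale stood at 1470 and 1314 in controls, at 44.6, 19.5 and 22.8 after 10000 R and at 12.85, 10.9 and 18.8 after 20000 R. For soti controls stood at 1343 and 1387, the 10000 R libraries at 16.15, 15.9 and 11.8 and the 20000 R libraries at 6.80, 6.08 and 8.90. At 20000 R soti fell by 7.38 ± 0.48 (SE; limma adjusted p = 3.88e-16), to 0.532% of the control mean.

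The other called genes were likewise far below the controls at day 20. Transcripts of schuy stood at 2138 and 932 in controls, at 45.4, 43.4 and 39.03 after 10000 R and at 15.9, 6.69 and 12.4 after 20000 R, and whip at 981 and 507 in controls, at 19.2, 23.9 and 30.2 and at 9.83, 6.69 and 8.90. For both genes the control, 10000 R and 20000 R libraries did not overlap. The gene r-cup went from 905 and 898 to 31.5, 23.9 and 51.6 after 10000 R and to 29.5, 18.2 and 28.7 after 20000 R. Controls of wa-cup stood at 504 and 211, and its irradiated libraries reached at most 21.4. For c-cup controls stood at 267 and 203, the 10000 R libraries at 3.84, 5.79 and 7.36 and the 20000 R libraries at 3.02, 0 and 0.989, a log2 change of -6.87 ± 1.48 at 20000 R (SE; limma adjusted p = 0.000341).

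At day 20 the libraries of 10000 R and 20000 R held few reads of d-cup, sunz and t-cup. Controls of d-cup stood at 94.2 and 80.7, and its irradiated libraries between 1.47 and 3.04. It was called at 10000 R (-4.80 ± 1.75, SE, adjusted p = 0.0450) and not at 20000 R (-4.56 ± 1.75, adjusted p = 0.0562). The latter was called by edgeR (adjusted p = 0.0212), by DESeq2 (0.00417), and by limma after quantile normalization (0.0202) and with a pseudocount of 10 (0.0388). Without the 9 libraries, which leaves control day 20 a as the only control, the change at 20000 R was -4.67. The call at 10000 R was lost in 8 of 15 alternatives. Among these are the fits without either control library of that day, which leave the other alone (-4.69 without a and -4.91 without b). Controls of sunz stood at 146 and 0.949, the 10000 R libraries at 0.769, 25.3 and 2.21 and the 20000 R libraries at 2.27, 0 and 0, so both irradiated groups overlapped with the controls. With all libraries limma called sunz at neither dose, while at 20000 R edgeR (adjusted p = 0.0134), DESeq2 (0.000934) and limma after quantile normalization (0.0212) called it. Without the 9 libraries, which leaves control day 20 a as the only control, the changes of sunz were -4.79 at 10000 R and -6.63 at 20000 R. After 20000 R all 3 libraries together held 3 reads of sunz and 2 reads of t-cup, and 10000 R libraries held 2 reads of t-cup. The control libraries of t-cup stood at 38.9 and 0.949 normalized counts.

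The fall was seen between 5000 R and 10000 R. At day 10 hale stood at 1433, 1402 and 1300 normalized counts after 5000 R, soti at 1760, 2296 and 1245, and r-cup at 1106, 1110 and 797. These values lay within or near those of the controls, against which no member was called at 10, 1000 or 5000 R on day 10. Background calls there were 0%, 0% and 0.016% of all genes. From 5000 R to 10000 R 9 members fell at day 10 (20.2% of all genes called lower) and 7 at day 20 (18.8%). From 1000 R to 5000 R none was called at day 10 (0.00802% of all genes) or day 20 (0%), and at day 20 none was called against control at 10 R (0.016%), 1000 R (0.016%) or 5000 R (0.473%). In each of these comparisons without a called member edgeR and DESeq2 also called 0, and 0 members had an unadjusted p below 0.05. The study used no dose between 5000 R and 10000 R.

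Between 10000 R and 20000 R at day 10 limma called no member (0 at an unadjusted p below 0.05; 0.697% of all genes called). There edgeR called 0 and DESeq2 called 2, d-cup and wa-cup, both higher. Those are genes for which 20000 R day 10 a stood at 88.0 and 168 normalized counts. Without the 9 libraries 2 other members were called lower at 20000 R than at 10000 R, schuy (-1.49, limma adjusted p = 0.00542) and c-cup (-2.004, adjusted p = 0.0117), as were 3.07% of all genes. At day 20 whip was called lower after 20000 R than after 10000 R (-1.42 ± 0.37, SE, limma adjusted p = 0.0366; 1.31% of all genes called lower), and schuy, hale, c-cup and soti were lower with no overlap but not called. Counting whip, 5 members did not overlap (8.58% of all genes), and without the 9 libraries these 5 were all called lower (4.05% of all genes). The call of whip ended by edgeR (adjusted p = 0.0605) and without any of 5 single libraries (10000 R day 20 b or c, 20000 R day 20 a, b or c; adjusted p from 0.0604 to 0.262).

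The falls appeared between days 2 and 10 and the levels stayed low. From day 2 to day 10, 9 members fell after 10000 R (21.8% of all genes called lower) and 8 after 20000 R (20.2%). From day 10 to day 20 none was called after 10000 R (limma, edgeR and DESeq2 0, unadjusted 0; 0% of all genes). After 20000 R soti and whip were lower at day 20 than at day 10 (-1.74 ± 0.43 and -1.58 ± 0.37, SE; limma adjusted p = 0.0447 and 0.0276; 0.745% of all genes called lower). Neither call held without the 9 libraries, among them 20000 R day 10 a (0.441% of all genes called lower). The change against control differed between days for 6 members at 10000 R (14.1% of all genes, F test) and 7 at 20000 R (13.8%), and for none at 5000 R (0.0561%; edgeR, DESeq2 and unadjusted 0). After 5000 R hale fell from day 2 to day 10 (-1.20 ± 0.29, SE, limma adjusted p = 0.00652; 3.75% of all genes called lower), from 2306, 3324 and 4121 to 1433, 1402 and 1300. That call was lost when only the 5000 R libraries were fitted, and from day 10 to day 20 no member was called (limma, edgeR and DESeq2 0, unadjusted 0; 0% of all genes).

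At the lowest dose the calls at day 2 rested on b and c of its libraries. At day 2 after 10 R, c-cup stood at 547, 1.29 and 0 normalized counts, d-cup at 177, 0 and 0, sunz at 371, 0 and 0, and schuy at 3691, 123 and 1179. Library a lay near the controls for each, while b and c, both with few genes above 0, were low. These 4 were called lower with all libraries, as were 32% of all genes, and none was called by edgeR or DESeq2. Without the 9 libraries only library a of this group is left, and the median change of the 10 genes was 0.31. The call of c-cup held without any single library of the comparison. Without b that of schuy ended (adjusted p = 0.307), without b or c that of d-cup (0.130 and 0.0775), and without b, c, control day 2 a or control day 2 b that of sunz (0.213, 0.150, 0.0554 and 0.0506). In the same libraries hale stood at 2742, 1445 and 2189 and r-cup at 1670, 839 and 1406, changes of -0.13 ± 0.29 and -0.08 ± 0.31 (SE, not called).

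The members differed in how far they stood below the rest in the 6 libraries with few genes above 0. These libraries were set apart for their many genes at 0, so low values in them are in part given by that choice. How many of all genes lay as low there was not counted. Averaged over all libraries c-cup (257), d-cup (99.9), sunz (140) and t-cup (36.9) were the lowest members, and schuy (1840) was the highest. Each member was compared with the median of the other libraries of its day up to 5000 R. Levels of c-cup, d-cup and sunz had medians of 6.25%, 0.408% and 0.282% over the 6 libraries and lay below the lowest of the other libraries in 5, 5 and 6 of them. For schuy and wa-cup the medians were 47.5% and 46.8%, below the lowest in 5 and 4. In contrast hale, r-cup, soti and whip had medians of 92.5%, 104%, 114% and 93.9%, and were below the lowest in 1, 1, 1 and 2. The gene t-cup had a median of 0% in these libraries, but stood at 0 in others too, such as 1000 R day 2 c and 5000 R day 10 b, so it was below the lowest in 0. The libraries were not alike: in control day 20 b c-cup was at 76.3% and d-cup at 80.6%, above whip at 70.1%. In 5000 R day 20 c wa-cup was at 90.8%, and in 10 R day 2 b soti was at 28.1%.

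**Figure D3:**
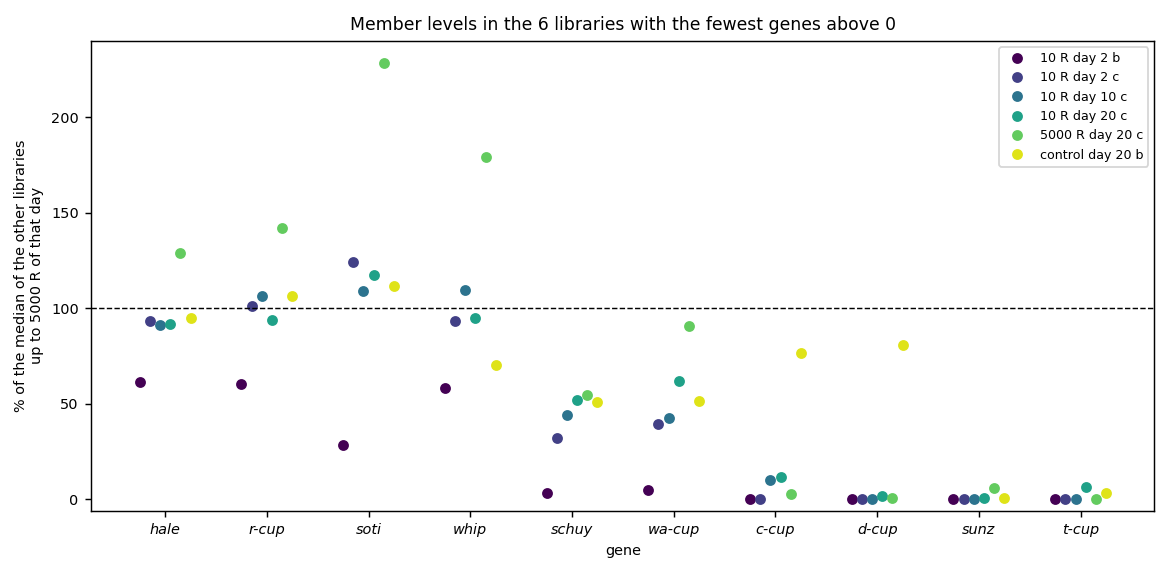
Level of each gene in the 6 libraries with the fewest genes above 0 (coloured points), as a percent of the median of the other libraries of the same day up to 5000 R; the dashed line marks 100%. The points of hale, r-cup, soti and whip scatter around the line, while those of sunz and t-cup lie near 0.

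Other testis genes and the rest of the pathway in which soti acts were set beside these genes. The lists describe counts and medians, and nothing is read from them as particular to one list. Of the 5 other cup genes found in the table, 5 fell at 10000 R and at 20000 R on day 10, with medians of -3.11 and -3.29. The transcripts p-cup (-6.35 ± 1.16 and -5.02 ± 1.16, SE) and w-cup (-5.93 and -6.56) were the lowest of these. The changes of f-cup (-2.30), h-cup (-3.11) and m-cup (-2.61) at 10000 R were smaller: f-cup went from 3095 ± 194 to 630 ± 61.5 normalized counts at 10000 R, h-cup from 1641 ± 140 to 190 ± 28.4 and m-cup from 3895 ± 439 to 637 ± 93.5 (SD, n = 3 each).

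Of 12 genes around soti and the caspases of spermatids, 9 fell at both doses on day 10, with medians of -2.12 and -2.13. The testis partner of Cul3, klhl10, which recruits substrates to the ligase that soti inhibits, went from 1263 ± 162 to 22.4 ± 8.02 normalized counts at 10000 R (SD, n = 3 each), a change of -5.81 ± 0.86 (SE). Both doses are given in order for the following log2 changes. Cul3 itself was at -2.34 and -2.20, and Roc1b, the ring-finger subunit of the complex, at -2.65 and -2.67. The armadillo repeat gene gudu was at -5.68 and -5.50, and Cyt-c-d, the cytochrome c of the male germ line that is needed for caspase activation there, at -5.81 and -6.50. The F-box gene ntc (nutcracker) was at -2.91 and -2.47 and its partner PI31 at -1.03 and -0.97. Of the deubiquitinating enzymes, Duba was at -1.90 and -2.05 and scny at -0.37 and -0.37. Under quantile normalization the median over all genes was 0.42 at 10000 R, against 0.03 as deposited, and 0.38 at 20000 R, against 0.10. On that scaling scny was no longer called (-0.23 and -0.19, adjusted p = 0.0597 and 0.110). The caspases Dronc, Drice and Dcp-1, which other tissues use too, were not called: Dronc stood at 228 ± 114 at 10000 R against 209 ± 7.74 in controls, Drice at 417 ± 19.4 against 325 ± 26.1, and Dcp-1 at 273 ± 36.2 against 228 ± 25.8 (SD, n = 3 each). Under quantile normalization Drice was called higher at both doses (0.86 and 0.75) and Dcp-1 at 10000 R (0.91).

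Transcripts that spermatocytes make for later use had median changes near those of the members. Of 19 genes, 19 fell at 10000 R and 17 at 20000 R on day 10, with medians of -5.88 and -6.68, while dj and gdl missed the threshold at 20000 R. Of 10 tested meiotic arrest genes, which switch on the spermatocyte programme, 10 and 8 fell, with medians of -3.67 and -3.36, among them achi (-2.31 and -2.34) and vis (-2.94 and -2.83). Of 8 genes in the early germ line list, whose stages of expression were not separated, 3 fell at each dose, bgcn, Rbp4 and kmg. The list's medians were -2.14 and -2.11. Without the 9 libraries 5 and 7 early germ line genes fell (25.1% and 24.8% of all genes called lower), with medians of -3.13 and -3.37. All 10 meiotic arrest genes then fell at each dose, with medians of -3.11 and -4.04. At day 2 after 20000 R the medians were -1.82 for the early germ line list, -0.96 for the meiotic arrest genes, -0.23 for the spermatocyte transcripts and -0.27 for the cup and comet genes. In those 4 lists 1 early germ line gene was called at that dose and day, and 0 genes of the others. Fitted without the 9 libraries, none of which is in these 2 groups, the medians were the same, and 3 early germ line genes and 2 meiotic arrest genes were called lower (0.97% of all genes). The differences between the lists were not tested.

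**Figure D4:**
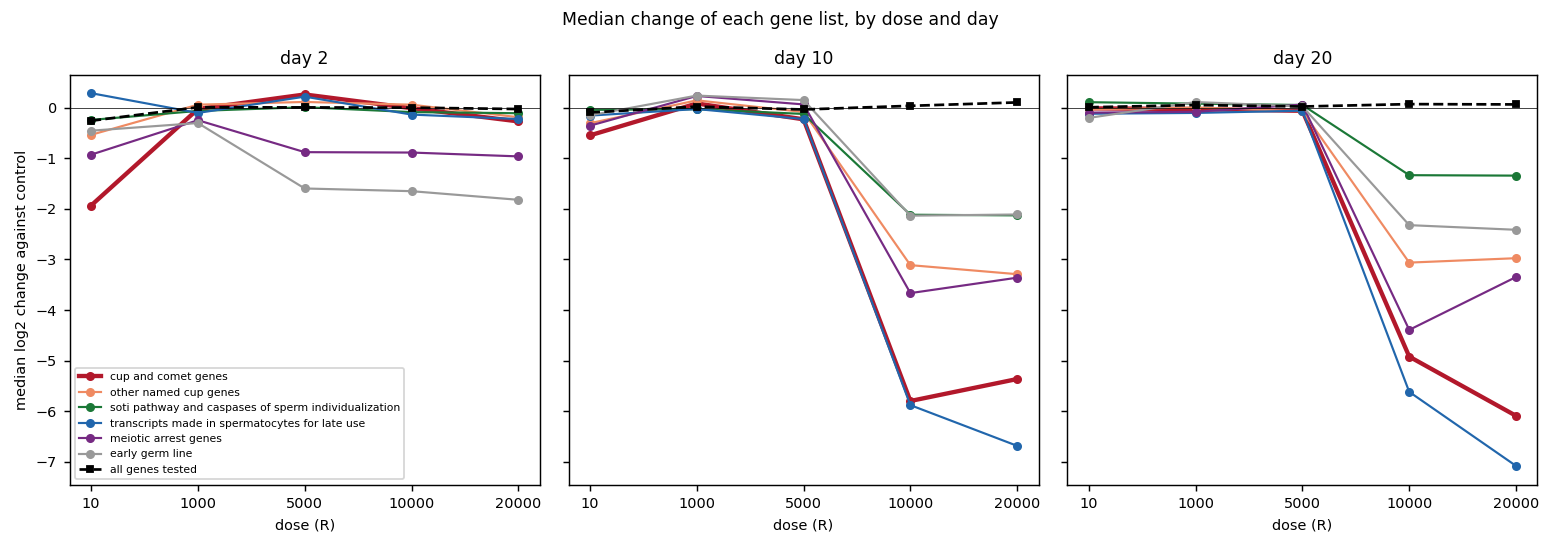
Median log2 change against control of each gene list by dose in R, 1 panel per day, with the median of all genes tested as a dashed line. At days 10 and 20 the lines of the testis lists run close to 0 up to 5000 R and drop at 10000 R, that of the cup and comet genes to -5.80 at day 10; at day 2 the early germ line list lies lowest from 5000 R, at -1.82 for 20000 R.

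Markers of other cells of the male were read beside these falls. Of 6 genes of somatic testis cells, upd1, eya and Nep4 fell at both doses on day 10 (19.9% and 18.7% of all genes called lower). The rest of that list was not called, and its medians were -0.47 at 10000 R and -0.43 at 20000 R. Under quantile normalization eya was not called at 10000 R (-0.57, limma adjusted p = 0.102). The 6 summed to 3925 to 4549 normalized counts in controls, 2856 to 3065 after 10000 R and 2523 to 2823 after 20000 R. Of 9 tested accessory gland and ejaculatory duct genes 0 fell at either dose and 1, Acp95EF, rose at 20000 R. Their list of 10 summed to 10826 to 12396 in controls, 7574 to 12227 after 10000 R and 14061 to 19526 after 20000 R. The yolk and eggshell genes summed to 429 to 629 in controls, 981 to 210931 after 10000 R and 928 to 1089 after 20000 R. At 10000 R Yp1 and Yp2 were called higher, Cp36 was at 0 in every library, and library c held the highest sum. In that library the members stood beside a and b: hale at 29.5, soti at 23.7, and the median change of the 10 genes without the 9 libraries was -5.80 as with them. The part of somatic testis cells in the falls was not tested. At 20000 R, without the 9 libraries and so without library a, the median was -6.23 in place of -5.36.

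Group means of each member were set beside the mean of the other 9. Over all 18 groups Pearson's r ran from 0.874 for t-cup to 0.991 for wa-cup, a description over groups that share depth and the same drop. Over the 14 groups other than 10000 R and 20000 R at days 10 and 20, r was between 0.563 and 0.681 for hale, r-cup, soti and whip and between 0.840 and 0.974 for the other 6, where the 10 R group of day 2 also holds the low libraries b and c. The 5 genes outside the set whose means over the 18 groups were most like the mean profile of the 10 were CG4270 (0.997), CG32026 (0.997), CG12692 (0.997), klhl10 (0.996) and CG12069 (0.996). In day 10 controls CG32026 stood at 2426 normalized counts on average and CG4270 at 667, and after 20000 R at 100.5 and 8.88.

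By the annotation the 10 genes lie on chromosome arms X, 2L, 2R, 3L and 3R, and each has 1 annotated transcript, of 718 bases in t-cup to 2140 in r-cup. They are protein-coding. The genes next to whip, swif (swift-tuttle) and hubl (hubble), are further comet genes outside the set. On day 10 swif stood at 2048 ± 196 normalized counts in controls, at 46.7 ± 14.6 with 10000 R and at 67.4 ± 52.6 with 20000 R (SD, n = 3 each), log2 changes of -5.47 ± 0.68 and -5.17 ± 0.68 (SE). The other neighbour, hubl, went from 704 ± 65.0 to 33.2 ± 22.8 and 28.1 ± 22.2. Both were chosen after the annotation was read. By that annotation whip lies within pdm3, on the other strand, and t-cup within bun, with no overlap of exons in either case.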

How the data were processed

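RNA of whole males was sequenced after an Illumina TruSeq preparation, per the labels. Per the submitters' processing notes the authors used TopHat2 2.0, the dm3 build and DESeq; which program counted reads, and whether by strand, is not stated in these sources. The signal the authors deposited is counts scaled by 1 size factor per library: every deposited value was a whole multiple of 1 step per library within a tolerance of 0.1 (100% of values), which gave back whole reads. Intervals were not computed from reads, and depth sets the precision of the low genes. Symbols, lengths and neighbours come from an annotation of another build, so no coordinates are given.

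One limma fit (3.58.1, R 4.3.3, eBayes with trend) on log2(normalized count + 1) gave each of the 18 groups a mean over all 53 libraries. The SE of a gene pools the spread within all groups. This scale understates the change of low genes. The fit held 12475 genes with a mean of at least 10, with p-values adjusted by Benjamini-Hochberg per contrast (threshold 0.05). An F test asked whether a dose's change differs between days. Nothing in the labels says that the libraries of a group are separate cultures, so the p-values cover the spread between libraries, which may be technical, and no more. Alternatives were pseudocounts of 0.5 and 10, no filter or a minimum of 50, quantile and upper-quartile scaling, edgeR 4.0.16 and DESeq2 1.42.0 on the recovered reads, fits of the same day or dose only, and each library left out; leaving out the 9 libraries together was added later. Members and lists were chosen with earlier results of these data known. Of 90 list symbols 4 matched no gene. Named genes were all members, the other cup genes, the soti pathway, 2 genes per other list by p at 20000 R on day 10, the 5 most alike genes, Yp1 and Mst98Ca; kmg, eya, dj, gdl, Cp36, swif and hubl were chosen after their values or annotation were seen. Mst98Ca stood at 17226 ± 649 normalized counts in day 10 controls and 137 ± 31.7 after 20000 R (SD, n = 3 each), and Mst98Cb at 9786 ± 827 and 74.2 ± 17.4. The steps were tested on simulated data.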

Additional observations from a re-analysis of the deposited data

Results flagged for a closer look

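The change against control differed between days, by an F test over days 2, 10 and 20 in limma, for 6 genes at 10000 R. These were hale (adjusted p = 1.31e-15), r-cup (7.33e-13), soti (5.83e-11), whip (1.08e-10), schuy (2.74e-06) and wa-cup (0.000270). At day 2 hale was at -0.01 on the log2 scale, against -6.04 at day 10 and -5.63 at day 20.

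At 20000 R it differed for 7 genes: hale (adjusted p = 3.08e-17), r-cup (5.45e-13), whip (4.41e-12), soti (8.32e-12), schuy (1.07e-07), wa-cup (0.000754) and c-cup (0.0136). At day 2 soti was at -0.30, against -5.80 at day 10 and -7.38 at day 20. No group of these data has the 4 libraries needed to look for single outlying samples.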

How the results depend on the processing

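For the members, 3289 alternative values were computed for comparisons between doses, or of a dose with controls, on the same day. Comparisons between days and the F tests are not in this count. In 3212 the call and, where there was one, the direction did not change, 41 lost a call, 33 gained one and 3 called falls reversed. All 3 are at 10 R on day 2 without the 9 libraries, which leaves library a alone in that group: schuy 0.086, c-cup 0.17 and sunz 0.82.

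Counts of called members that moved by over 1.5 times were as follows. At 10 R on day 2 (4) edgeR and DESeq2 gave 0, and leaving out a library 1 to 6. Leaving out the 9 libraries leaves 10 R day 2 a alone there, so its count is not given. For 20000 R against 10000 R on day 10 (0), quantile scaling gave 1, DESeq2 2 and leaving out the 9 libraries 2. For the same doses on day 20 (1), a pseudocount of 10 and edgeR gave 0, same-day libraries 2, leaving out a library 0 to 1 and leaving out the 9 libraries 5. For controls from day 2 to 10 (0), control libraries alone gave 2. From day 2 to 10 after 5000 R (1), quantile scaling gave 3, same-dose libraries 0, leaving out a library 0 to 1 and leaving out the 9 libraries 4. From day 10 to 20 after 20000 R (2), a pseudocount of 10, quantile scaling, same-dose libraries and leaving out the 9 libraries gave 0, and leaving out a library 0 to 2. The causes were not tested.

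Low reads limit d-cup, sunz and t-cup. No paired analysis was possible because the table's columns carry no replicate number.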
